A study of Mus musculus with 8 samples.

Results

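The vascular endothelial growth factor (VEGF) family was described across 4 groups of mouse cells, with 2 RNA-seq libraries in each group. The family was taken as 10 genes named by symbol, with no threshold on their values (vegfa, vegfb, pgf, vegfc, figf, flt1, kdr, flt4, nrp1 and nrp2 in the lower case of the files), and all 10 were found among the 22558 genes of the fragment table. They were the ligand genes Vegfa, Vegfb, Pgf, Vegfc and Figf (the older symbol of Vegfd, which the files use), the receptor genes Flt1, Kdr and Flt4, and the neuropilin genes Nrp1 and Nrp2. All 10 passed the filter on low counts that left 14847 genes for testing. In 3 groups, cells carrying fibroblast activation protein (FAP), a membrane protease of stromal fibroblasts, had been sorted from visceral fat, skeletal muscle or pancreas after dissociation, and the labels name the pancreas cells pancreatic stellate cells. The other group held mouse embryonic fibroblasts (MEFs) sorted as FAP-negative, cultured for 3 passages and sorted for the absence of FAP again. The strain, age and sex of the mice are not given in the sources used here, and none of the groups carries a stated genetic change or treatment. Every comparison with MEFs therefore also sets cells taken directly from tissue against cultured embryonic cells, and these differences cannot be told apart.

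VEGF ligands are secreted dimers that act on receptor tyrosine kinases, mainly on endothelial cells, the lining of blood and lymph vessels. VEGF-A signals through KDR (VEGFR2) to drive vessel growth and leakiness, while FLT1 (VEGFR1) binds VEGF-A, VEGF-B and PlGF (the product of Pgf) and, in its soluble form, acts as a decoy. VEGF-C and VEGF-D act on FLT4 (VEGFR3), the receptor of lymphatic endothelium, and VEGF-C after cleavage also acts on KDR. The neuropilins are co-receptors shared with the class 3 semaphorins. Fibroblasts and other stromal cells are known sources of the ligands.

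The promoter windows of the 4 members that were higher than MEFs in all 3 FAP+ populations, Vegfc, Figf, Pgf and Kdr, are shown because these members share that direction against MEFs. They come from RefSeq on build GRCm38.p6, in which all 10 members had an entry, and run from 250 bases before to 50 bases after the annotated start. Figf lies at chrX:164373272-164373571 on the plus strand, Vegfc at chr8:54077282-54077581 on the plus strand, Kdr at chr5:75978406-75978705 on the minus strand, and the upstream of the windows of Pgf at chr12:85177264-85177563 on the minus strand. Each is written 5′ to 3′ along its gene, and capitals mark the core of the hypoxia response element, the letters ACGTG or GCGTG on either strand.
Figf: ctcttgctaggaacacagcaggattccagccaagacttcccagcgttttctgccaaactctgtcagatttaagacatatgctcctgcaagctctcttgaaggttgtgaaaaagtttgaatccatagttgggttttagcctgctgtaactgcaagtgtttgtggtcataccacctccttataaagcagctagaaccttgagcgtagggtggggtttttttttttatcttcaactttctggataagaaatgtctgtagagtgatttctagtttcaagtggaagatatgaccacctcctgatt
Vegfc: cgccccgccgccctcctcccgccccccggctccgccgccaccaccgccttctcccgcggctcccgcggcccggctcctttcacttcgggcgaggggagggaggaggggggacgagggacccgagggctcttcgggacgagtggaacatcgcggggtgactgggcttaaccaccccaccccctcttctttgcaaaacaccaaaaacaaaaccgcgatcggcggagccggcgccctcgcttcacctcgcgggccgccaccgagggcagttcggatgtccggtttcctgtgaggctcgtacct
Pgf: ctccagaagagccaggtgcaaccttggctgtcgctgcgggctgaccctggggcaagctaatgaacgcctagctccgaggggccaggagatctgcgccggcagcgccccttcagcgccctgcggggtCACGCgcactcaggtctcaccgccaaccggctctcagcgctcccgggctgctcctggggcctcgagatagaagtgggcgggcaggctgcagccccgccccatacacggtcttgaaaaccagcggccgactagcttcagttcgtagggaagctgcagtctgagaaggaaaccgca
Kdr: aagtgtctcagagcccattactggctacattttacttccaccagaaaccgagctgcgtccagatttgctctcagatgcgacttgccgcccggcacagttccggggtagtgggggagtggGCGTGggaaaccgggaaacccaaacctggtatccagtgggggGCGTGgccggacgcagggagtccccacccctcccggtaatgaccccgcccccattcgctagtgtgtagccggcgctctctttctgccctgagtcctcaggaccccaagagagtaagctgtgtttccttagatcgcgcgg
The Kdr window held 2 such cores and the Pgf window 1, whereas the Figf and Vegfc windows held none of these letters. Among all 32851 promoter windows of the same length, 43.8% held at least 1 core. The letters TGANTCA, the binding sequence of AP-1, were searched on both strands as well and stood in none of the 12 windows of the family, against 7.81% of all windows, and no match of the cores overlapped another. The Figf window was poor in G and C, at 42% of its bases, against 70.3% in Vegfc, 66% in Pgf and 60.7% in Kdr and a median of 52.7% over all windows. These matches describe letters and were not tested for binding.

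The libraries held 15516319 to 27759399 estimated fragments, and 15935 to 19720 genes had a value above 0. Levels are normalised fragments in CPM (the library-size normalised unit, scaled by TMM factors), which serve to compare a gene between libraries. Fold changes ± SE and adjusted p-values come from edgeR's quasi-likelihood test with Benjamini-Hochberg adjustment over all 14847 genes, and a gene was called at an adjusted p below 0.05. In adipose library 1 the ratio of fragments to reads differed from the other libraries for several members, so values from whole reads recovered from the deposited RPKM are set beside the fragments where they differ. Fap stood at 28.0 and 34.4 CPM in adipose, 88.8 and 107 in muscle and 55.4 and 65.6 in pancreas FAP+ cells, against 2.37 and 0.516 in MEFs, which matches the sort in every library. All 8 fibroblast markers, among them Pdgfra, Col1a1 and Dcn, were above the floor of 3 fragments in every library, with sums of 32724 to 40786 CPM in adipose, 28889 to 30765 in muscle, 17618 to 20330 in the pancreas and 3283 to 4035 in MEFs. Markers of other cells were lower. Sums over 8 mural cell markers were 93.8 to 107 CPM in adipose, 69.7 to 106 in muscle, 104 to 108 in the pancreas and 125 to 146 in MEFs. Sums over 10 macrophage and leukocyte markers were 11.9 to 24.0, 2.45 to 3.44, 3.13 to 3.64 and 1.95 to 2.00 CPM in the same groups, those over 5 adipocyte markers were 10.5 to 18.8, 0.172 to 1.47, 0.208 to 0.416 and 0 to 0.0304 CPM, and those over 6 skeletal muscle fibre markers were 18.5 to 70.4, 51.0 to 65.3, 42.9 to 45.7 and 22.0 to 25.3 CPM. Sums over 8 acinar and islet markers were 1.34 to 7.09, 3.22 to 3.38, 61.1 to 130 and 1.65 to 1.82 CPM, and those over 5 mesothelial markers 72.2 to 96.3, 5.45 to 7.72, 33.8 to 64.9 and 39.2 to 46.3 CPM. Their part in the results on the VEGF family was not tested.

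**Figure D1:**
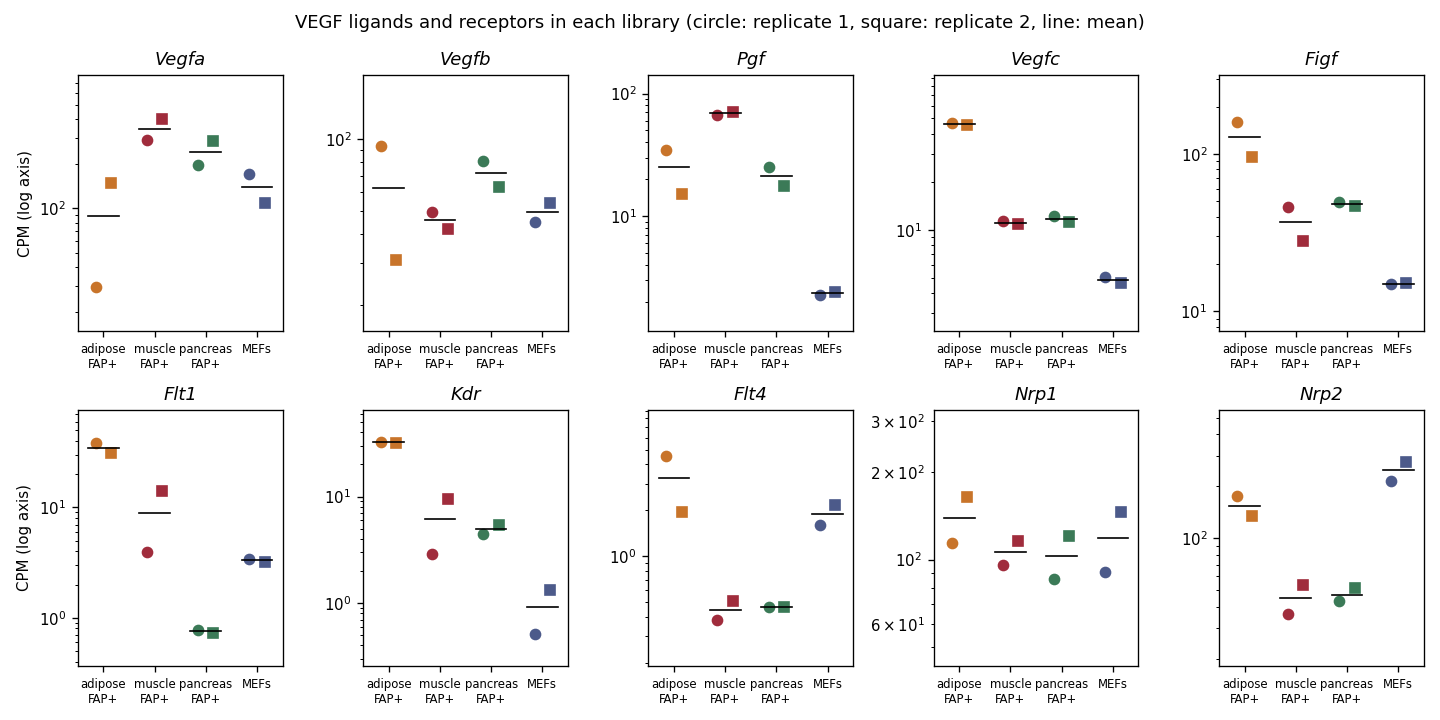
Levels of the 10 VEGF family genes in each library, in normalised CPM on a log axis with a range of its own in each panel; circles are replicate 1, squares replicate 2 and lines group means. Vegfc, Figf, Pgf and Kdr stand higher in all FAP+ libraries than in MEFs, Nrp2 stands highest in MEFs, and Vegfa and Vegfb are wide apart between the 2 adipose libraries.

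Against MEFs, 4 members were higher in all 3 FAP+ populations: the ligand genes Vegfc, Figf and Pgf and the receptor gene Kdr. The share of all genes called higher in all 3 was not counted, so this number has no background beside it. In adipose FAP+ cells 5 of the 10 members were called, all higher, these 4 and Flt1, where 50.1% of all genes tested were called, 26.9% higher and 23.2% lower. In muscle 6 members were called, those 4 higher and Flt4 and Nrp2 lower, against 43.8% of all genes called. In pancreas 7 members were called, those 4 higher and Flt1, Flt4 and Nrp2 lower, against 42.5% of all genes called. The shares of all genes called in the higher direction were 23.7% in muscle and 23.1% in the pancreas, and in the lower direction 20% and 19.4%. The median log2 fold change over MEFs of the 10 members was 1.92 in adipose, 1.25 in muscle and 0.67 in the pancreas, where all genes tested had medians of 0.049, 0.030 and 0.018. From recovered reads 7 members were called in adipose, 8 in muscle and 8 in the pancreas, against 56.6%, 55.7% and 53.6% of all genes. The 3 comparisons share their MEF libraries, so they are given side by side and not as independent repeats.

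**Figure D2:**
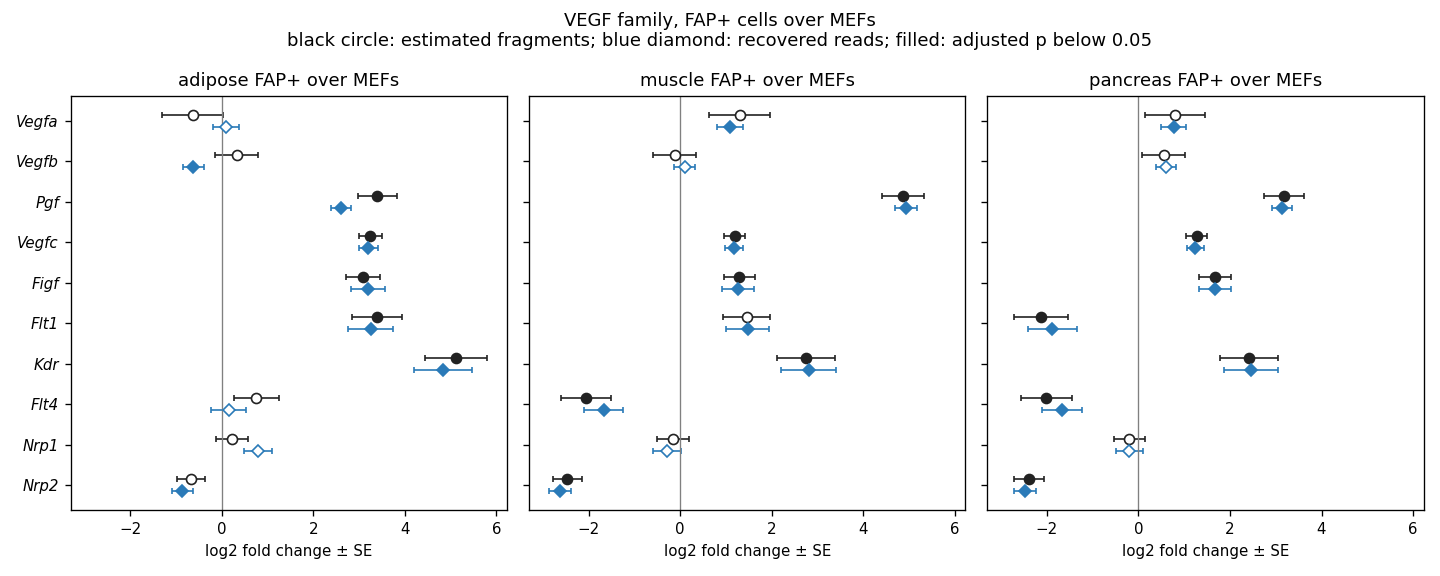
Log2 fold changes of the 10 members in FAP+ cells over MEFs (± SE), from estimated fragments (black circles) and from recovered reads (blue diamonds), filled where the adjusted p is below 0.05. Vegfc, Figf, Pgf and Kdr lie to the right of 0 in all 3 panels, Nrp2 lies to the left, and Flt1 lies on the right in adipose (3.39) and on the left in the pancreas (-2.12).

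Pgf, which encodes placental growth factor, a ligand of FLT1, had the highest fold of any ligand over MEFs in muscle. It stood at 34.6 and 15.2 CPM in adipose, 66.6 and 71.1 in muscle and 24.96 and 17.5 in pancreas FAP+ cells, against 2.28 and 2.40 in MEFs. The lowest FAP+ library was thus well above the MEF libraries, and muscle was above the other tissues. The fold over MEFs was 29.4 in muscle (log2 4.88 ± 0.46, adjusted p = 0.000214), 10.6 in adipose (3.40 ± 0.43, adjusted p = 0.000696) and 9.05 in the pancreas (3.18 ± 0.43, adjusted p = 0.00101). Each of these calls held in all 23 alternative settings. The adipose fold was 6.12 from recovered reads, which put the adipose libraries at 20.8 and 18.7 CPM, and the log2 value from fragments was 2.70 without adipose library 1.

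Vegfc, the main lymphangiogenic ligand, stood at 46.8 and 45.2 CPM in adipose, 11.3 and 10.9 in muscle and 12.2 and 11.2 in the pancreas, against 5.04 and 4.61 in MEFs. The 2 libraries of each group lay close together, and the groups did not overlap except for muscle and pancreas. It was 9.52-fold higher than MEFs in adipose (log2 3.25 ± 0.24, adjusted p = 7.13e-05), 2.29-fold higher in muscle (1.20 ± 0.23, adjusted p = 0.00467) and 2.42-fold in the pancreas (1.27 ± 0.23, adjusted p = 0.00366). Figf, encoding the related ligand VEGF-D, stood at 159 and 96.2 CPM in adipose, 46.2 and 27.8 in muscle and 49.5 and 46.6 in the pancreas, against 14.9 and 15.1 in MEFs. It had the same order of groups as Vegfc, with a wider spread in adipose and muscle. It was 8.49-fold higher than MEFs in adipose (log2 3.09 ± 0.37, adjusted p = 0.000501), 2.46-fold higher in muscle (1.30 ± 0.34, adjusted p = 0.0182) and 3.19-fold in the pancreas (1.68 ± 0.35, adjusted p = 0.00688). The adipose calls of both ligands held in all 23 settings. The Figf call in muscle was lost without muscle library 1 (log2 0.88, adjusted p = 0.141), MEF library 1 (1.26, 0.104) or MEF library 2 (1.33, 0.0877), and that in the pancreas without MEF library 1 (1.65, 0.0565). On log2(FPKM + 1), which is not scaled by TMM factors, Vegfc over MEFs was 0.48 in muscle (limma, adjusted p = 0.286) and 0.68 in the pancreas (0.154), and Figf in muscle was 0.59 (0.142).

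Vegfa and Vegfb, the ligand genes best known from hypoxic and metabolically active tissue, did not pass the test against MEFs in any tissue from estimated fragments. Vegfa stood at 29.6 and 150 CPM in adipose, 289 and 400 in muscle and 198 and 288 in the pancreas, against 170 and 109 in MEFs. All muscle and pancreas libraries were above the MEF libraries, and the adipose libraries differed 5.06-fold from each other. Its log2 fold change over MEFs was -0.64 ± 0.66 in adipose (adjusted p = 0.443), 1.30 ± 0.67 in muscle (0.149) and 0.80 ± 0.66 in the pancreas (0.360). Adipose library 1 had 533 recovered reads of Vegfa but 388 estimated fragments, or 0.727 fragments per read, where the other 7 libraries had 3.48 to 5.01. From recovered reads, Vegfa stood at 48.7 and 72.8 CPM in adipose, 106 and 138 in muscle and 92.2 and 103 in the pancreas, against 66.0 and 48.2 in MEFs, and it was called higher in muscle (log2 1.10 ± 0.28, adjusted p = 0.0102) and pancreas (0.77 ± 0.28, adjusted p = 0.0444), while adipose gave 0.092 ± 0.28 (0.791). Estimated fragments also called Vegfa in muscle without adipose library 1 (1.30, adjusted p = 0.00699) or 2 (1.30, 0.00759), in the pancreas without adipose library 1 (0.80, 0.0488), and lower in adipose without adipose library 2 (-2.25, 0.00227).

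Vegfb stood at 93.5 and 30.9 CPM in adipose, 49.4 and 41.9 in muscle and 81.4 and 63.1 in the pancreas, against 44.8 and 53.8 in MEFs. Adipose held both the highest and the lowest of the 8 libraries, and the muscle libraries overlapped those of MEFs. Its log2 fold change over MEFs was 0.33 ± 0.47 in adipose (adjusted p = 0.573), -0.11 ± 0.47 in muscle (0.865) and 0.55 ± 0.47 in the pancreas (0.373). Recovered reads turned the direction in adipose, with 17.7 and 13.0 CPM there against 21.8 and 25.5 in MEFs (log2 -0.62 ± 0.23, adjusted p = 0.0459). On log2(FPKM + 1), which is not scaled by TMM factors, limma gave -0.96 in adipose (adjusted p = 0.0336). With at least 1 FPKM in 2 libraries it was also -0.96, where the median of all genes was -0.93. On that scale Vegfb thus stood near the median gene. Adipose library 1 held 6.33 fragments per recovered read of Vegfb, against 3.02 to 4.04 in the other libraries, and without adipose library 2 the fragments gave a higher level in adipose (0.91, adjusted p = 0.0136).

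Kdr, the main signalling receptor of VEGF-A, stood at 32.8 and 31.8 CPM in adipose, 2.87 and 9.48 in muscle and 4.43 and 5.46 in the pancreas, against 0.510 and 1.34 in MEFs. Every FAP+ library was above the MEF libraries, and adipose was far above the other tissues. It was 34.8-fold higher than MEFs in adipose (log2 5.12 ± 0.68, adjusted p = 0.000829), 6.72-fold higher in muscle (2.75 ± 0.63, adjusted p = 0.0102) and 5.34-fold in the pancreas (2.42 ± 0.63, adjusted p = 0.0172). The adipose value depended on the MEF libraries, at log2 4.56 without MEF library 1 and 5.97 without MEF library 2. It was called in both cases (adjusted p = 0.0110 and 0.00612). The muscle call was lost without muscle library 2 (1.63, adjusted p = 0.0841) or MEF library 1 (2.18, 0.0756). The muscle value was 3.35 without muscle library 1 and 3.61 without MEF library 2. The pancreas value was 3.28 without MEF library 2, and the pancreas call was lost without pancreas library 1 (2.55, 0.0601) or 2 (2.25, 0.0816) or MEF library 1 (1.87, 0.112). On log2(FPKM + 1) limma gave 0.77 in muscle (adjusted p = 0.193) and 0.74 in the pancreas (0.220). On log2(FPKM + 0.1) it gave 1.69 (0.102) and 1.73 (0.105). Neither scale carries TMM factors, and at 0.169 to 2.02 FPKM in these groups the size of the added constant matters.

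Flt1, which encodes the receptor of VEGF-A, VEGF-B and PlGF, went opposite ways in different tissues. It stood at 38.5 and 30.9 CPM in adipose, 3.95 and 14.0 in muscle and 0.782 and 0.727 in the pancreas, against 3.39 and 3.22 in MEFs. Pancreas was below MEFs in both libraries, at 15.2 and 13.9 fragments, and muscle was just above MEFs in one library and clearly above in the other. Over MEFs it was 10.5-fold higher in adipose (log2 3.39 ± 0.55, adjusted p = 0.00203) and 4.35-fold lower in the pancreas (-2.12 ± 0.59, adjusted p = 0.0221), and in muscle it missed the threshold (1.45 ± 0.52, adjusted p = 0.0540). The muscle value was called from recovered reads (1.48, adjusted p = 0.0256), without adipose library 1 (1.45, 0.0371) or 2 (1.45, 0.0356) and without muscle library 1 (2.08, 0.00709), but without muscle library 2 it was 0.25 (0.626). The pancreas call was lost without pancreas library 1 (-2.18) or 2 (-2.08) and without MEF library 1 (-2.10) or 2 (-2.15). On log2(FPKM + 1) limma gave -0.74 in the pancreas (adjusted p = 0.200), and on log2(FPKM + 0.1) it gave -2.03 (0.0516).

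Flt4, the receptor of VEGF-C and VEGF-D, had the fewest fragments of the family over the 8 libraries. It stood at 4.57 and 1.95 CPM in adipose, 0.383 and 0.515 in muscle and 0.469 and 0.468 in the pancreas, against 1.62 and 2.19 in MEFs. These were 59.7 and 47.9 fragments in adipose, 5.91 and 11.7 in muscle and 8.83 and 9.32 in the pancreas, against 54.5 and 71.7 in MEFs, above the floor of 3 fragments in all libraries. It was 4.15-fold lower than MEFs in muscle (log2 -2.05 ± 0.55, adjusted p = 0.0195) and 4.03-fold lower in the pancreas (-2.01 ± 0.55, adjusted p = 0.0216), and adipose overlapped MEFs (0.76 ± 0.50, adjusted p = 0.233). The muscle call was lost without muscle library 1 (-1.88, adjusted p = 0.121) or 2 (-2.30, 0.0916) or MEF library 2 (-1.80, 0.0924), and the pancreas call without pancreas library 1 (-2.02, 0.117) or 2 (-2.02, 0.110) or MEF library 1 (-2.23, 0.0554) or 2 (-1.76, 0.0982). Without adipose library 2, adipose was called higher (1.25, 0.0473).

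Markers of endothelial cells, in which these receptors are best known, were higher than MEFs in sum in every FAP+ library. The 16 endothelial markers, among them Pecam1, Cdh5, Cldn5 and Tek, summed to 1006 and 999 CPM in adipose, 141 and 280 in muscle and 120 and 123 in the pancreas, against 35.6 and 37.6 in MEFs. By group means, Kdr had the same order as this sum, whereas Flt1 in the pancreas and Flt4 in muscle and pancreas were lower than MEFs. Of the 16, 15 were called higher than MEFs in adipose and 13 in muscle, and in the pancreas 6 were higher and 2 lower. Of all genes, 26.9%, 23.7% and 23.1% were called higher in these tissues and 19.4% lower in the pancreas. All 16 were above the floor in both adipose libraries and in muscle library 2. Cdh5, the cadherin of endothelial junctions, stood at 47.3 and 31.2 CPM in adipose, 1.47 and 5.96 in muscle, 0.156 and 0.0520 in the pancreas and 0.120 and 0 in MEFs. Cldn5, a claudin of the same junctions, stood at 194 and 332, 2.81 and 12.5, 0.886 and 0.676, and 0 and 0.0607 CPM in the same order. In pancreas most of the sum came from Tek, at 58.0 and 68.7 CPM, and Plvap, at 43.6 and 46.3 CPM, and Sox17 was at 0 in pancreas library 1. The largest part of the muscle sum came from Tek as well, at 86.3 and 102 CPM. That of the MEF sum came from Egfl7, at 30.6 and 32.9 CPM. In MEFs, Robo4 and Sox17 were at 0 in both libraries, Tie1 and Cldn5 in library 1 and Cdh5 in library 2. The 5 lymphatic endothelial markers, Prox1, Lyve1, Reln, Ccl21a and Mmrn1, summed to 3.33 to 8.08 CPM in adipose, 1.21 to 1.93 in muscle and 2.44 to 4.59 in the pancreas, against 0.425 to 0.480 in MEFs, with Reln at 0 in adipose library 2 and Ccl21a and Mmrn1 at 0 in both MEF libraries. In bulk RNA, more endothelial cells in a sort and more receptor RNA per FAP+ cell cannot be told apart, and the part of these markers in the receptor results was not tested.

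**Figure D3:**
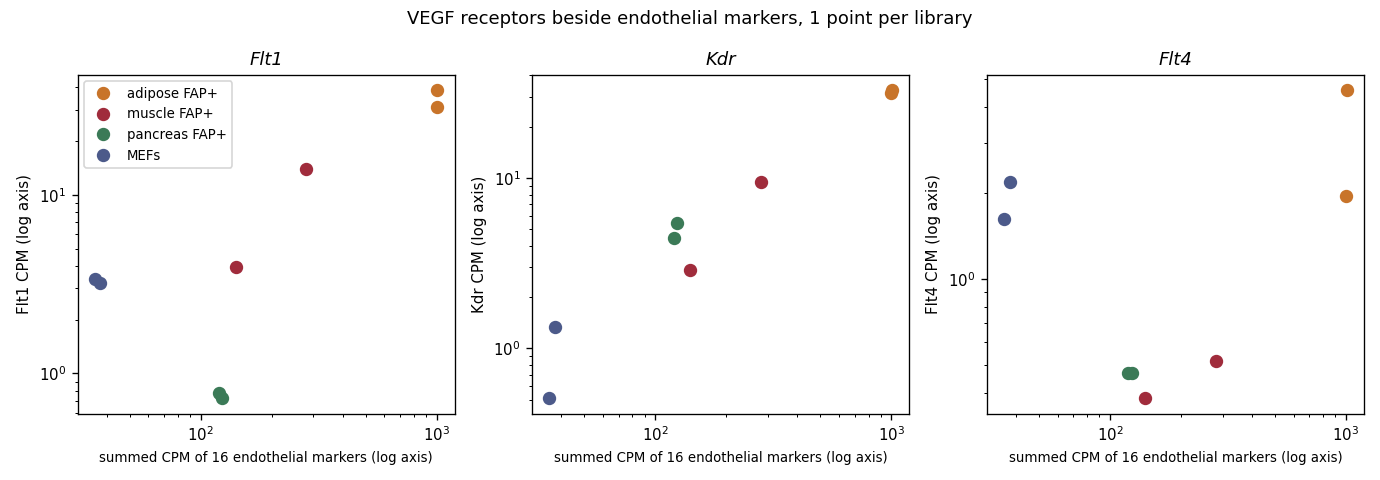
CPM of Flt1, Kdr and Flt4 against the summed CPM of 16 endothelial markers, 1 point per library, on log axes. The adipose libraries stand at the top right for Flt1 and Kdr. Pancreas has a higher marker sum than MEFs (120 and 123 against 35.6 and 37.6) with less Flt1 and Flt4. Most of the pancreas sum came from Tek (58.0 and 68.7 CPM) and Plvap (43.6 and 46.3).

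The 2 muscle libraries differed in the receptors and in the same markers. Muscle library 2 had 3.55 times the Flt1 and 3.30 times the Kdr of muscle library 1 in CPM, 1.35 times the Flt4, 1.21 times the Nrp1 and 1.47 times the Nrp2. All 16 endothelial markers were higher in library 2, with a median ratio of 3.87 and a range of 1.18 to 6.32, where the median of all genes tested was 1.01. In MEFs, Flt1 and Flt4 were measured (3.22 to 3.39 and 1.62 to 2.19 CPM) with Cdh5 and Cldn5 at or near 0. Of the 16 endothelial markers, 10 were above the floor in MEF library 1 and 9 in MEF library 2. Egfl7 was the highest of them, at 30.6 and 32.9 CPM.

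The neuropilin genes split. Nrp2, the neuropilin of lymphatic endothelium and a receptor of class 3 semaphorins, stood at 175 and 135 CPM in adipose, 36.2 and 53.2 in muscle and 43.0 and 51.1 in the pancreas, against 216 and 278 in MEFs. Muscle and pancreas were well below MEFs in all libraries, and adipose lay between. It was 5.52-fold lower than MEFs in muscle (log2 -2.46 ± 0.32, adjusted p = 0.000838) and 5.25-fold lower in the pancreas (-2.39 ± 0.32, adjusted p = 0.000978), calls that held in all 23 settings. In adipose the difference of -0.68 ± 0.31 was not called from fragments (adjusted p = 0.0989) but was from recovered reads (-0.86 ± 0.23, adjusted p = 0.0122), so that by recovered reads Nrp2 was lower than MEFs in all 3 tissues. By fragments Nrp1, the co-receptor of VEGF-A, varied least of the family, at 114 and 164 CPM in adipose, 96.1 and 116 in muscle and 85.7 and 121 in the pancreas, against 90.4 and 146 in MEFs. All groups overlapped MEFs by fragments, with log2 fold changes of 0.23 ± 0.35 in adipose (adjusted p = 0.593), -0.16 ± 0.35 in muscle (0.736) and -0.20 ± 0.35 in the pancreas (0.676). Adipose library 1 had 0.238 fragments per recovered read of Nrp1, against 0.586 to 0.762 elsewhere, and recovered reads gave 573 and 456 CPM in adipose, 223 and 264 in muscle and 238 and 279 in the pancreas, against 218 and 376 in MEFs. By reads both adipose libraries thus stood above MEFs, just short of a call by edgeR (log2 0.79 ± 0.30, adjusted p = 0.0507).

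Between tissues, Vegfc, Figf, Flt4 and Nrp2 were lower in muscle and in pancreas cells than in adipose FAP+ cells. In muscle against adipose 4 members were called, Vegfc, Figf, Flt4 and Nrp2, all lower in muscle, where 6.12% of all genes tested were called, 3.78% lower and 2.34% higher. In pancreas against adipose 6 members were called, the same 4 with Flt1 and Kdr, all lower in the pancreas, against 9.05% of all genes called, 5.73% lower and 3.32% higher. In pancreas against muscle Flt1 alone was called, lower in the pancreas, against 3.67% of all genes called, 2.14% lower and 1.54% higher. The median log2 fold change of the 10 members was -1.79 for muscle over adipose and -1.56 for pancreas over adipose, against -0.0057 and -0.0012 for all genes, and 0.0040 for pancreas over muscle, against -0.0018 for all genes. From recovered reads 9, 8 and 2 members were called in these comparisons, against 13.5%, 22.5% and 6.05% of all genes.

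**Figure D4:**
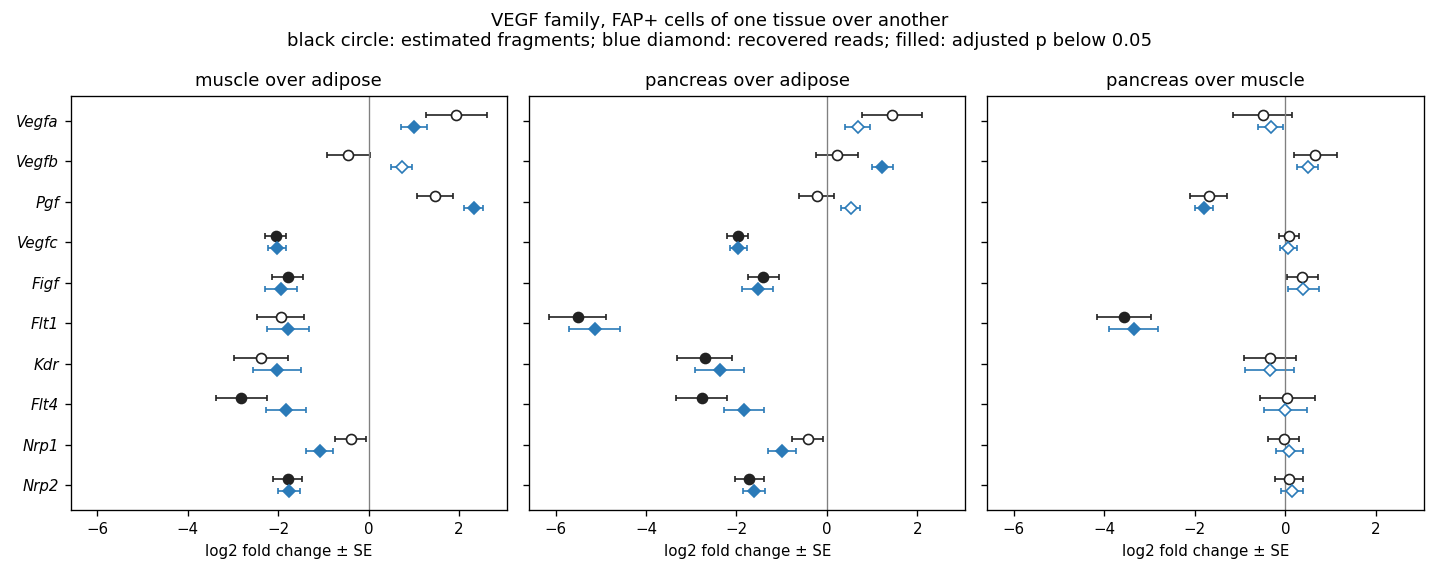
Log2 fold changes of the 10 members between FAP+ populations (± SE), from estimated fragments (black circles) and recovered reads (blue diamonds), filled where the adjusted p is below 0.05. Vegfc, Figf, Flt1, Kdr, Flt4 and Nrp2 lie left of 0, lower in muscle and pancreas than in adipose, and Flt1 (-3.57) lies farthest from 0 between pancreas and muscle.

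Vegfc was 4.16-fold lower in muscle than in adipose (log2 -2.05 ± 0.23, adjusted p = 0.00592) and 3.94-fold lower in the pancreas than in adipose (-1.98 ± 0.23, adjusted p = 0.00434). Figf was 3.45-fold lower in muscle (-1.79 ± 0.35, adjusted p = 0.0279) and 2.66-fold lower in the pancreas (-1.41 ± 0.34, adjusted p = 0.0447). The difference of pancreas over muscle did not pass the test for either gene, at log2 0.078 ± 0.22 for Vegfc (adjusted p = 0.968) and 0.38 ± 0.34 for Figf (0.780). Pgf showed another order, with muscle highest. It was 2.78-fold higher in muscle than in adipose (log2 1.47 ± 0.40, adjusted p = 0.0736) and 3.25-fold lower in the pancreas than in muscle (-1.70 ± 0.40, adjusted p = 0.0660), neither called from fragments. From recovered reads both were called, at log2 2.32 ± 0.21 (adjusted p = 0.000828) and -1.80 ± 0.21 (adjusted p = 0.00204), with 94.6 and 103 CPM in muscle and 31.2 and 25.6 in the pancreas, against 20.8 and 18.7 in adipose. Fragments called Pgf in muscle over adipose without adipose library 1 (2.17, adjusted p = 0.00636) or 2 (1.00, 0.0243), and in pancreas over muscle without adipose library 1 (-1.70, 0.00359) or 2 (-1.70, 0.00355). Vegfa over adipose was log2 1.94 ± 0.68 in muscle (adjusted p = 0.145) and 1.44 ± 0.67 in the pancreas (0.223), and recovered reads called it in muscle (1.00 ± 0.28, adjusted p = 0.0489) and not in the pancreas (0.68 ± 0.28, 0.112). Without adipose library 2 the fragments called Vegfa higher in muscle (3.55, adjusted p = 0.00140) and pancreas (3.04, 0.00214) than in adipose. Vegfb was not called from fragments in muscle over adipose (-0.45 ± 0.47, adjusted p = 0.584) or pancreas over adipose (0.22 ± 0.47, 0.810), whereas recovered reads put it higher in the pancreas (1.23 ± 0.23, adjusted p = 0.00869), as did fragments without adipose library 1 (1.21, 0.0303), and fragments without adipose library 2 put it lower in muscle (-1.03, 0.0163).

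The calls of the ligands between tissues were lost in several fits that left out 1 library. Vegfc in muscle against adipose was not called without muscle library 1 (-2.08, adjusted p = 0.0788) or 2 (-2.03, 0.0695), and in pancreas against adipose without pancreas library 1 (-2.03, 0.0719) or 2 (-1.92, 0.0699). The Figf call in muscle against adipose was lost without any 1 of the 6 libraries of muscle, pancreas and MEFs (-2.19 to -1.46, lowest adjusted p = 0.0668), and that in pancreas against adipose was lost without any 1 of 7 libraries, adipose library 2 being the exception (-1.44 to -1.01, lowest adjusted p = 0.0659).

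Flt1 was 45.7-fold lower in the pancreas than in adipose (log2 -5.51 ± 0.63, adjusted p = 0.00427) and 11.9-fold lower in the pancreas than in muscle (-3.57 ± 0.60, adjusted p = 0.0221), the farthest that any member stood apart between tissues. In muscle it was 3.83-fold lower than in adipose (-1.94 ± 0.52, adjusted p = 0.0723). Kdr was 6.52-fold lower in the pancreas than in adipose (-2.71 ± 0.60, adjusted p = 0.0333) and 5.18-fold lower in muscle than in adipose (-2.37 ± 0.59, adjusted p = 0.0593). Recovered reads called both genes in muscle against adipose (Flt1 -1.78, adjusted p = 0.0376; Kdr -2.02, adjusted p = 0.0426). Flt4 was 7.03-fold lower in muscle (-2.81 ± 0.57, adjusted p = 0.0310) and 6.82-fold lower in the pancreas (-2.77 ± 0.56, adjusted p = 0.0251) than in adipose, and recovered reads gave 3.55-fold and 3.56-fold. Nrp2 was 3.46-fold lower in muscle (-1.79 ± 0.31, adjusted p = 0.0207) and 3.28-fold lower in the pancreas (-1.72 ± 0.31, adjusted p = 0.0178) than in adipose. Nrp1 was -0.39 ± 0.35 in muscle (adjusted p = 0.516) and -0.43 ± 0.35 in the pancreas (0.477) over adipose from fragments, and was called lower from recovered reads (-1.08, adjusted p = 0.0499, and -0.99, adjusted p = 0.0474). Beside these receptors, 13 of the 16 endothelial markers were called lower in the pancreas than in adipose and 4 in muscle than in adipose, where 5.73% and 3.78% of all genes were.

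The receptor calls between tissues also changed in fits that left out 1 library. Without pancreas library 1 or 2, the calls in pancreas against adipose were lost for Flt1 (-5.55, adjusted p = 0.0741; -5.47, 0.0688), Kdr (-2.55, 0.239; -2.87, 0.198), Flt4 (-2.76, 0.191; -2.77, 0.181) and Nrp2 (-1.59, 0.179; -1.85, 0.131), where the lone pancreas library was assumed to vary like the other groups. The Flt4 call in pancreas against adipose was also lost without 1 of the muscle or MEF libraries (-2.77 to -2.76, adjusted p = 0.0545 to 0.0638). The Flt4 value in pancreas against adipose was -2.05 without adipose library 1 (0.0466). The Flt1 value in pancreas against muscle was -4.21 without muscle library 1 (0.0154), and its call was lost without muscle library 2 (-2.39, adjusted p = 0.0598), pancreas library 1 (-3.63, 0.219) or 2 (-3.53, 0.197) or MEF library 1 (-3.56, 0.0595) or 2 (-3.58, 0.0599). In muscle against adipose, Flt4 lost its call without any library except adipose library 2 (-3.06 to -2.10, adjusted p = 0.0602 to 0.256), and Nrp2 without muscle library 1 (-1.54, 0.212) or 2 (-2.09, 0.104) or pancreas library 1 (-1.77, 0.0658) or 2 (-1.79, 0.0635). In the same comparison Flt1 was called without adipose library 2 (-2.08, 0.0235) or muscle library 2 (-3.13, 0.0389) but was -1.30 without muscle library 1 (0.216), and Kdr without adipose library 2 (-2.38, 0.0222).

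**Figure D5:**
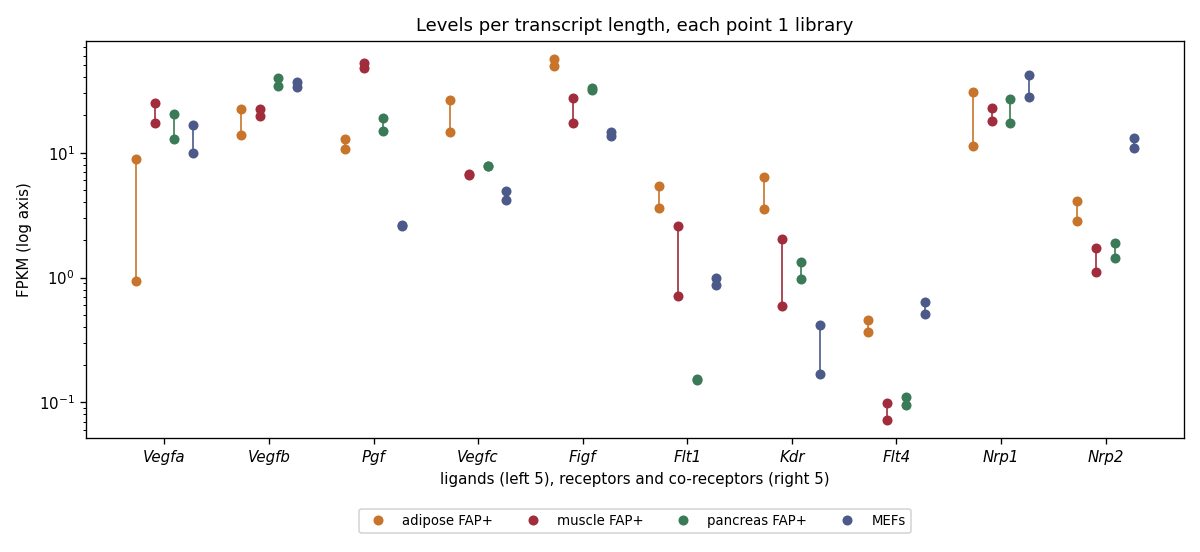
Levels per transcript length of the 10 members in FPKM on a log axis, each point 1 library and each line joining the 2 libraries of a group. By the deposited lengths Figf is the most abundant member in adipose, Pgf in muscle, and Vegfb has the highest mean in the pancreas and MEFs, while Flt4 stands lowest in the 3 tissues.

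Levels of different members were compared per length, in the bias-adjusted FPKM, which carry no TMM scaling and so serve within a group. In adipose FAP+ cells Figf led at 49.8 and 56.6 FPKM, above every other member in both libraries. Nrp1 (11.3 and 30.7), Vegfc (14.6 and 26.5), Vegfb (22.3 and 13.9) and Pgf (12.9 and 10.7) followed in order of their means, with ranges that overlapped from each to the next except for Vegfb and Pgf. Kdr, Vegfa, Flt1 and Nrp2 overlapped each other between 0.934 and 8.89 FPKM, and Flt4 was lowest at 0.457 and 0.367. In muscle Pgf led at 47.2 and 52.7 FPKM, clear of Figf, Vegfa, Vegfb and Nrp1, which overlapped between 17.3 and 27.4. Vegfc stood apart below them at 6.67 and 6.72, then Flt1, Nrp2 and Kdr overlapped between 0.591 and 2.60, and Flt4 was lowest at 0.0717 and 0.0997.

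In pancreas Vegfb led at 39.6 and 34.0 FPKM, just above Figf at 31.6 and 33.0. Nrp1, Pgf and Vegfa overlapped between 12.8 and 27.1, Vegfc stood at 7.77 and 7.87, Nrp2 at 1.42 and 1.88, Kdr at 0.969 and 1.34, Flt1 at 0.151 and 0.153 and Flt4 at 0.0944 and 0.110. In MEFs Vegfb (33.3 and 37.1) and Nrp1 (27.9 and 41.9) overlapped at the top, and Figf, Vegfa and Nrp2 overlapped between 9.98 and 16.7. Vegfc followed at 4.90 and 4.16, Pgf at 2.64 and 2.58, Flt1 at 0.988 and 0.873, Flt4 at 0.511 and 0.633 and Kdr at 0.169 and 0.420. On this scale ligand genes stood above receptor tyrosine kinase genes by their means in muscle, pancreas and MEFs, and in adipose with the exception of Vegfa. The length that links fragments to FPKM in the deposited tables was 9.89 times that of Figf for Vegfa and 19.3 times for Nrp2, where the longest transcripts in the GENCODE annotation differ 1.68 and 3.28 times. It was 1.31 times for Vegfb and 3.16 times for Nrp1, where the transcripts differ 0.625 and 1.76 times. With the longest transcript as the length, Vegfa had the highest mean rescaled FPKM in muscle (124), pancreas (97.9) and MEFs (78.5). Figf kept the first place in adipose (53.2), and Pgf stood at 41.2 in muscle. On that scale no ligand gene stood below a receptor tyrosine kinase gene in any group. The order of the members thus depends on how the length was set.

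Likeness of pattern was measured as the root mean square difference of log2 CPM, each gene centred on its own mean over the 8 libraries, which share depth and the 4 groups. It used estimated fragments only, with adipose library 1 included, where fragments per read differed for several members. There Vegfb stood at 93.5 CPM by fragments and 17.7 by recovered reads, and Nrp1 at 114 and 573. Likeness was not measured from recovered reads. Of the 45 pairs within the family Vegfc and Figf were closest, at 0.33, followed by Flt4 and Nrp2 at 0.52. Among 7852 genes with a mean of at least 10 CPM, Vegfc was closest to Kank3 (0.20), Hpgd (0.22) and Trex1 (0.26), and Figf to Aebp1 (0.24), Igsf8 (0.26) and Irgm1 (0.28). Pgf was closest to Pthlh (0.46), Adamtsl1 (0.47) and Il18 (0.48). Nearest to Flt1 were Egfl7 (0.67), itself 1 of the endothelial markers, Ptx3 (0.79) and Cdh13 (0.83), and nearest to Kdr were Pde2a (0.50), Anxa9 (0.58) and Jam2 (0.59). Among the genes nearest to Flt4 were Gprc5a (0.36) and Odc1 (0.40), and Nrp2 was closest to Efna1 (0.22), Ywhah (0.27) and Ldha (0.33). For Vegfa they were Zbtb44 (0.38), Oaf (0.40) and Rara (0.40), for Vegfb Zfp771 (0.16), Zfpl1 (0.17) and Rpap1 (0.17), and for Nrp1 they included Wapal (0.14) and Trappc10 (0.17), the last 2 members having the least spread of their own.

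Among 24 genes of the hypoxia-inducible factors and their targets, which include known regulators of Vegfa, calls against MEFs went both ways: 7 higher and 8 lower in adipose, 7 and 7 in muscle, and 6 and 9 in the pancreas. In either direction 50.1%, 43.8% and 42.5% of all genes were called. Epas1, which encodes HIF-2α, stood at 187 ± 15.4 CPM in adipose and 1.49 ± 0.18 in MEFs (log2 6.97 ± 0.42, adjusted p = 3.66e-05), and the hexokinase gene Hk2 at 245 ± 114 against 11.8 ± 0.67 CPM (4.37 ± 0.38, adjusted p = 0.000137; SD, n = 2 each). The lysyl oxidase family gene Loxl2 was higher in adipose (log2 2.08), muscle (2.17) and pancreas (1.55), with adjusted p of 0.00130, 0.00122 and 0.00518. Bhlhe40, a transcriptional repressor, was higher in muscle (3.14 ± 0.47, adjusted p = 0.00156). The glycolytic gene Pgk1 was lower than MEFs in adipose (-2.25), muscle (-2.84) and pancreas (-2.90), with adjusted p of 0.000747, 0.000332 and 0.000316, and Ldha was lower in muscle (-2.09, 0.00351) and pancreas (-2.31, 0.00244). The glucose transporter gene Slc2a1 was lower in the pancreas (-3.07 ± 0.27, adjusted p = 0.000156). The median log2 fold change of the list was -0.47, -0.24 and -0.19 in adipose, muscle and pancreas.

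Between tissues, 3 hypoxia genes were lower in muscle than in adipose and 4 lower in the pancreas than in adipose, beside 3.78% and 5.73% of all genes. Recovered reads called 3 lower and 0 higher in muscle, and 7 lower and 1 higher in the pancreas. In either direction they called 13.5% and 22.5% of all genes. Epas1 was lower in muscle than in adipose (42.4 ± 17.6 against 187 ± 15.4 CPM, log2 -2.14 ± 0.33, adjusted p = 0.0133), and Hk2 was lower than in adipose in muscle (-1.86, 0.0245) and pancreas (-3.44, 0.00381), as was Ldha in the pancreas (-1.57, 0.0397). Pancreas against muscle gave 0 calls by edgeR, with 3 genes at an unadjusted p below 0.05, 2 called by DESeq2 and 1 by edgeR on recovered reads. Recovered reads called 6.05% of all genes there, and the shares by unadjusted p and by DESeq2 were not counted.

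Of 16 partners of the neuropilins, the class 3 semaphorins, plexins and adaptors, 4 were higher and 4 lower than MEFs in adipose, 3 and 5 in muscle and 5 and 4 in the pancreas. In either direction 50.1%, 43.8% and 42.5% of all genes were called. Sema3b was higher in adipose (149 ± 4.30 against 17.6 ± 3.69 CPM, log2 3.08 ± 0.31, adjusted p = 0.000240), muscle (3.51, 0.000173) and pancreas (2.42, 0.000702). Sema3c was higher in muscle (138 ± 21.6 against 25.1 ± 3.05 CPM, 2.46 ± 0.40, adjusted p = 0.00229) and pancreas (2.06, 0.00495). Sema3a, the semaphorin that signals through Nrp1, was lower in adipose (2.67 ± 1.73 against 97.2 ± 29.6 CPM, log2 -5.14 ± 0.68, adjusted p = 0.000801), muscle (-4.61, 0.00126) and pancreas (-5.36, 0.000796). Sema3f, a ligand of Nrp2, was lower in adipose (-3.01, 0.000770) and pancreas (-3.60, 0.000452), and Gipc1, an adaptor that binds the neuropilin tail, in adipose (-1.11, 0.0104) and muscle (-1.77, 0.00165). Median log2 fold changes of the list were -0.22, 0.056 and 0.61. Between tissues, Sema3g was lower in the pancreas than in adipose (0.0520 ± 0.0735 against 2.03 ± 1.37 CPM, adjusted p = 0.0322), with its pancreas mean under the floor of 3 fragments. Recovered reads called 4 of the list higher and 2 lower in that comparison, beside 22.5% of all genes called in either direction. Gipc1 was higher in the pancreas than in muscle (1.41 ± 0.27, adjusted p = 0.0332, and 0.0529 from recovered reads). In muscle against adipose edgeR gave 0 calls, with 6 at an unadjusted p below 0.05, 3 called by DESeq2 and 2 by edgeR on recovered reads. Recovered reads called 13.5% of all genes there, and the shares by unadjusted p and by DESeq2 were not counted.

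Of 32 genes that process or bind the ligands or carry their signal, 12 were higher and 6 lower than MEFs in adipose, 13 and 7 in muscle and 9 and 10 in the pancreas, where 50.1%, 43.8% and 42.5% of all genes were called. Sparc, a matrix protein that binds VEGF-A, was higher in adipose (9753 ± 923 against 2310 ± 512 CPM, log2 2.08 ± 0.37, adjusted p = 0.00306), muscle (2.20, 0.00269) and pancreas (1.22, 0.0282). Rcan1, a calcineurin inhibitor known as a target of VEGF signalling, was higher in adipose (588 ± 89.1 against 43.3 ± 2.66 CPM, 3.76 ± 0.28, adjusted p = 7.78e-05), and Hspg2, the heparan sulphate proteoglycan perlecan, in the pancreas (530 ± 66.5 against 59.1 ± 17.3 CPM, 3.16 ± 0.46, adjusted p = 0.00147). Thbs1, encoding the antiangiogenic thrombospondin-1, was lower in adipose (-1.55, 0.0156), muscle (-3.46, 0.000735) and pancreas (-2.31, 0.00378). The adaptor gene Grb10 was lower in adipose (-2.57, 0.00275), muscle (-2.06, 0.00746) and pancreas (-1.81, 0.0127). Akt1 was lower in muscle (-0.86 ± 0.27, adjusted p = 0.0327; not called from recovered reads, log2 -0.72). Median log2 fold changes of the list were 0.68, 0.25 and 0.14.

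Between tissues, fragments called 6 of the 32 processing and signalling genes in muscle and 6 in the pancreas, each lower than in adipose, beside 6.12% and 9.05% of all genes. Recovered reads called 2 of them higher and 6 lower in muscle, and 2 higher and 10 lower in the pancreas. In either direction they called 13.5% and 22.5% of all genes. Rcan1 was lower in muscle (log2 -1.54, adjusted p = 0.0185) and pancreas (-2.62, 0.00349) than in adipose, Thbs1 in muscle (-1.91, 0.0386) and the transcription factor gene Nfatc1 in the pancreas (55.5 ± 4.38 against 231 ± 106 CPM, -2.06, 0.0172). Ptprb, the endothelial phosphatase VE-PTP, is also 1 of the endothelial markers. It was the only gene of the list called by edgeR from fragments in pancreas against muscle. Ptprb stood at 0.729 ± 0.0751 CPM in the pancreas and 12.9 ± 10.6 in muscle (-4.15 ± 0.64, adjusted p = 0.0159), with the higher muscle value in library 2. In this comparison 10 genes of the list had an unadjusted p below 0.05, and DESeq2 called 7. The matching shares of all genes were not counted. From recovered reads edgeR called 5 lower and 0 higher in the pancreas, beside 6.05% of all genes in either direction.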

How the data were processed

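RNA from 8 mouse libraries, 2 per group, had been amplified from its poly(A) tail and sequenced, per the labels' protocols. Of the 3 deposited tables, per the file headers, the first holds estimated counts of bias-adjusted fragments, the next the matching FPKM and the last RPKM. Build mm9 and the tools edgeR, HTSeq, TopHat2 and Bowtie2 appear, without versions or roles, in the submitters' processing notes. No source used here names the program of the bias adjustment. By name, 8 columns of each table matched a sample, and 6 others were not used. The fragments equalled FPKM times 1 length per gene and 1 factor per library. RPKM times that length gave whole reads for 21784 genes (100% of values within 0.01 of a whole number; 825 genes had no usable step), 9509792 to 16830845 per library.

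The design had been written for counts, so the estimated counts were rounded and tested with edgeR 4.0.16 (R 4.3.3; TMM, filterByExpr, quasi-likelihood, 1 fit of all 8 libraries, 4 residual degrees of freedom, common coefficient of variation 33.2%), with 6 comparisons. The TMM factors ran from 0.516 in adipose library 1 to 1.31 in both MEF libraries. A self-test on simulated counts ran first. Alternatives used other scaling and filters, DESeq2 1.42.0, limma 3.58.1 on log2(FPKM + 1) and log2(FPKM + 0.1), recovered reads, the replicate number as a block, a 2-fold threshold and each library left out. The labels call the libraries of a group biological replicates and the design text duplicate experiments. Precision is limited by n = 2 per group, and the floor of 3 fragments covers counting error only.

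Members and lists were chosen with earlier results of these data known. Named were all 10 members, Fap, the 4 called genes of each of 3 context lists with the highest mean CPM in the higher group (2 between tissues), and the 3 genes nearest each member in pattern, predicted genes left out; some of these genes are not reported here. The 9 marker lists are given as sums. Promoter sequences are RefSeq's on GRCm38.p6; file coordinates were not used. Gene counts cannot tell isoforms apart, such as soluble Flt1.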

Additional observations from a re-analysis of the deposited data

Results flagged for a closer look

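In 4 results the log2 fold change of a receptor gene over MEFs had opposite signs in 2 tissues, with the difference between the tissues itself past the threshold in edgeR's quasi-likelihood test (adjusted over all genes). Flt1 in pancreas over adipose was log2 -5.51 (adjusted p = 0.00427), with -2.12 over MEFs in pancreas and 3.39 in adipose, lower in 2 of 2 pancreas libraries. Flt1 in pancreas over muscle was -3.57 (adjusted p = 0.0221), with -2.12 over MEFs in pancreas and 1.45 in muscle, where the muscle value did not pass by itself. Flt4 in muscle over adipose was -2.81 (adjusted p = 0.0310), with -2.05 over MEFs in muscle and 0.76 in adipose, the last not called and below 0 on log2(FPKM + 1) (-0.15). Flt4 in pancreas over adipose was -2.77 (adjusted p = 0.0251), with -2.01 over MEFs in pancreas and 0.76 in adipose. The summed endothelial markers stood at 120 and 123 CPM in pancreas and 141 and 280 in muscle, against 1006 and 999 in adipose. Most of the pancreas sum came from Tek and Plvap, and the largest part of the muscle sum from Tek. The part of these markers in the differences was not tested.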

How the results depend on the processing

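Of the 60 results (10 members in 6 comparisons), 29 were called, and 9 of these stayed called under all 23 settings: Figf, Flt1, Kdr, Pgf and Vegfc in adipose over MEFs, and Pgf and Nrp2 in muscle and pancreas over MEFs. No called result changed direction under any setting; 70 of 708 values of uncalled results did, and the causes of the changes were not tested. Each group had 2 libraries, and Flt4 in muscle and pancreas rests on the fewest fragments among its groups. The settings chosen after seeing the data were the longest transcript as gene length, recovered reads without adipose library 1 or 2 and recovered reads with the replicate block. Upper quartile scaling moved the median of all genes by 0.12 in muscle over adipose and 0.14 in pancreas over adipose (log2), and log2(FPKM + 1) with at least 1 FPKM in 2 libraries moved it by -0.98, -0.62 and -0.48 in adipose, muscle and pancreas over MEFs.

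The number of members called in muscle over MEFs (6) was 3 with a 2-fold threshold, 3 on log2(FPKM + 1), 3 on log2(FPKM + 0.1) and 2 with the FPKM filter, and in pancreas over MEFs (7) it was 2, 4, 4 and 3. In muscle over adipose (4) it was 8 with DESeq2, 1 with a 2-fold threshold, 2, 1 and 1 on the FPKM scales, 9 from recovered reads, 8 from recovered reads with the replicate block and 0 with only the groups compared. In pancreas over adipose (6) it was 2 with a 2-fold threshold, 2, 1 and 1 on the FPKM scales and 3 with only the groups compared. In pancreas over muscle (1) it was 2 with DESeq2, 0 with a 2-fold threshold, 2 from recovered reads, with or without the block, and 2 with only the groups compared. Of all genes, recovered reads called 13.5%, 22.5% and 6.05% in these 3 comparisons between tissues, against 6.12%, 9.05% and 3.67% from fragments. The share of all genes called was not counted for the other settings or with 1 library left out. Those member counts therefore have no background beside them. Leaving out 1 library gave 5 to 8 in adipose over MEFs (8 without adipose library 2), 4 to 8 in muscle, 3 to 8 in pancreas (3 without MEF library 1, 4 without either pancreas library), 0 to 9 in muscle over adipose (0 without muscle library 1, 1 without muscle library 2 or either pancreas library, 2 without either MEF library, 9 without adipose library 2), 0 to 7 in pancreas over adipose (0 without either pancreas library) and 0 to 2 in pancreas over muscle (2 without either adipose library, 1 without muscle library 1 and otherwise 0). Recovered reads without 1 adipose library, which changes both the values and the library, reached 9 in pancreas over MEFs and 9 in pancreas over adipose.

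The replicate numbers are shared between groups, but deviations of same-numbered libraries correlated at 0.11 (adipose with muscle), 0.35 (adipose with pancreas), -0.16 (adipose with MEFs), -0.011 (muscle with pancreas), -0.074 (muscle with MEFs) and 0.0030 (pancreas with MEFs), so they were taken as numbers only. With the replicate block the counts were 5, 6, 7, 5, 6 and 1 in the order above, against 5, 6, 7, 4, 6 and 1 without it; it added Kdr in muscle over adipose (-2.58, adjusted p = 0.0296).

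Values that were uncalled from fragments and turned were as follows (log2). On log2(FPKM + 1), with the filter and, last, on log2(FPKM + 0.1), Nrp1 was -0.84, -0.84 and -0.88 in adipose over MEFs, 0.11, 0.11 and 0.12 in muscle over adipose, 0.20, 0.20 and 0.22 in pancreas over adipose and 0.094, 0.094 and 0.097 in pancreas over muscle; Vegfb was -0.96, -0.96 and -0.996 in adipose over MEFs (called there, adjusted p = 0.0336, 0.0235 and 0.0387) and 0.24, 0.24 and 0.26 in muscle over adipose; Pgf was 0.48, 0.48 and 0.51 in pancreas over adipose. Flt4 in adipose over MEFs was -0.15 and -0.39 on the unfiltered scales, and Kdr in pancreas over muscle 0.033 on log2(FPKM + 0.1). From recovered reads, without and with the block, Vegfa was 0.092 and 0.062 and Vegfb -0.62 and -0.63 in adipose over MEFs, Vegfb 0.11 and 0.10 in muscle over MEFs and 0.73 and 0.74 in muscle over adipose, Pgf 0.52 and 0.52 in pancreas over adipose, and Flt4 -0.0048 and -0.0092 and Nrp1 0.087 and 0.087 in pancreas over muscle. With 1 library left out, from fragments or, for adipose libraries, also from reads, the ranges were -2.25 to 0.35 for Vegfa, -0.86 to 0.91 for Vegfb, -0.094 to 0.93 for Nrp1 and -0.18 to 1.25 for Flt4 in adipose over MEFs; -0.27 to 0.11 for Vegfb and -0.50 to 0.25 for Nrp1 in muscle over MEFs, and -0.52 to 0.20 for Nrp1 in pancreas over MEFs. Between tissues they were -1.03 to 0.97 for Vegfb in muscle over adipose, -0.37 to 1.45 for Vegfb and -0.70 to 0.58 for Pgf in pancreas over adipose, and -0.94 to 0.78 for Kdr, -0.14 to 0.28 for Flt4, -0.31 to 0.18 for Nrp1 and -0.18 to 0.37 for Nrp2 in pancreas over muscle.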
